A study of Mus musculus with 15 samples.

Results

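The NR4A and EGR early response factors described here are 8 genes: the nuclear receptor genes Nr4a1, Nr4a2 and Nr4a3, the zinc finger genes Egr1, Egr2 and Egr3, the EGR corepressor gene Nab2 and the immediate early gene Ier2. They were chosen by gene symbol, and all 8 have a row among the 17493 genes of the count tables. Of the 8 genes, 6 passed the low-count filter, as did 10831 of all genes, while Nr4a3 and Egr3 had too few counts to be tested. RNA was measured by an adapted CEL-seq protocol, a 3'-end method primed from the poly(A) tail, in CD8+ T lymphocytes. The cells came from lymph nodes and spleen of female mice, the OT-1 strain C57BL/6-Tg(TcraTcrb)1100Mjb/Crl (ages are not given in the sources used here). All 15 libraries therefore share the OT-I receptor transgene, which recognises an ovalbumin peptide on MHC class I, and the cells model a response through a single T cell receptor. The 5 groups of 3 libraries are unstimulated cells at 0 h, cells given 5 ng/ml immunofilaments (IF) and sampled after 8 h or 22 h, and cells given 20000 dendritic cells (DC) per well and sampled at the same times. Immunofilaments are synthetic filaments, here carrying MHC loaded with the SIITFEKL variant of the ovalbumin peptide together with interleukin-2, whereas the dendritic cells were Flt3-ligand cultures pulsed with that peptide. Interleukin-2 is named for the IF groups alone, so the form of the stimulus and the cytokine cannot be told apart. In each comparison with unstimulated cells, sampled at 0 h alone, the stimulus and the time in culture cannot be told apart either. Each stimulated well held 50000 T cells, and viable CD8+ CD103- cells were sorted before lysis. The titles tag the libraries of every group Don1, Don2 and Don3, here called replicates 1 to 3, without spelling the tag out or saying whether a tag marks the same animal across groups. If the tags do not mark separate animals, p-values measure only the spread between these samples, which may be technical.

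NR4A proteins are orphan nuclear receptors whose genes are switched on quickly by T cell receptor signals, and Nr4a1, which encodes Nur77, is widely used as a readout of that signal. EGR proteins are zinc finger transcription factors induced through the ERK pathway and serum response factor, and EGR2 and EGR3 drive genes that restrain T cell activation. NAB2 is a corepressor that binds EGR proteins and is itself an EGR target, and IER2 is a small nuclear protein of the same immediate early class. Transcripts of this class are typically short-lived after a stimulus, and several of them are also raised by handling of cells.

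The genes lie on 7 chromosomes of the GRCm38 build, as placed by the GENCODE vM21 annotation, in which all 8 are protein-coding. Nr4a1 is at chr15:101254269-101274795 on the plus strand, Nr4a2 at chr2:57106830-57124003 on the minus strand and Nr4a3 at chr4:48045153-48086447 on the plus strand. Egr1 is at chr18:34859823-34864984, Egr2 at chr10:67535475-67542188 and Egr3 at chr14:70077203-70082614, all on the plus strand. Ier2 is at chr8:84661331-84662852 and Nab2 at chr10:127660918-127668568, both on the minus strand. Exons of Nab2 overlap 3 genes of the other strand, by 40 bases for Stat6, 151 for Nemp1 and 1050 for the antisense gene Gm16229. Use of strand in counting is not given in the sources used here, so reads of Nab2 and of these genes may not have been separated. The other 7 genes share no exonic base with another gene.

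Promoter sequences were taken from RefSeq (GRCm38.p6) for the 5 genes matched there, Nr4a1, Nr4a2, Nr4a3, Egr2 and Nab2, as the 250 bases before the annotated start. The NR4A promoters are shown because they share a sequence feature that played no part in choosing the genes. Capitals mark TGACG, the core of the element bound by CREB and ATF factors, read on either strand (CGTCA on the other), and in Egr2 they also mark a CArG box, the element bound by serum response factor. The windows are Nr4a1 at chr15:101266596-101266845 on the plus strand, Nr4a2 at chr2:57124004-57124253 on the minus strand, Nr4a3 at chr4:48045055-48045152 on the plus strand and the Egr2 start numbered 3 of the 5 in RefSeq at chr10:67537619-67537868 on the plus strand, each written 5' to 3' along its gene.

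Nr4a1: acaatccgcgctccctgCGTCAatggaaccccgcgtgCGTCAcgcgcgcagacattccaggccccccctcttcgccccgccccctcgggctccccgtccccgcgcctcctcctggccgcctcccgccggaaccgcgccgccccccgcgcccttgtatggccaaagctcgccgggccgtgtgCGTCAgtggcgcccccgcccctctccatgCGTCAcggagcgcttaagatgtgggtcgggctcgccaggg
Nr4a2: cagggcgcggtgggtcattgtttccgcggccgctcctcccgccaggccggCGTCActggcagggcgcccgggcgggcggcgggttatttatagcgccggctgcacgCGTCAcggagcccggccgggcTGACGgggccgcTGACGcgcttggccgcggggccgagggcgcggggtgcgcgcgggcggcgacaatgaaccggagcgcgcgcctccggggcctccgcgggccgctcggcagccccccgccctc
Nr4a3: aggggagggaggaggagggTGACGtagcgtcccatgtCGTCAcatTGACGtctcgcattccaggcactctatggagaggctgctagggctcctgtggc
Egr2: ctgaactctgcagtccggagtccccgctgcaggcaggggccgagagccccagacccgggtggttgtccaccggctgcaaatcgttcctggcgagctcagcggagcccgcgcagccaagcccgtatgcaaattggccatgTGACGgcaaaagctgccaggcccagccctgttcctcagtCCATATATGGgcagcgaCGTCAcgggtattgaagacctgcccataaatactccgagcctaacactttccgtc

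The 250-base windows of Nr4a1, Nr4a2 and Nr4a3 each held 4 matches to TGACG, of which 3 lie in the 98 bases of Nr4a3 that are shown, the rest of that window overlapping an annotated exon. At least 1 match was found in 17.8% of 32851 promoter windows of that length, and at least 4 in 0.137% of them, or 45 windows. The Egr2 window shown held 2 TGACG matches and 1 CArG box, CCATATATGG, at bases -72 to -63 from its start. A CArG box was in 4 of the 5 overlapping or nearby Egr2 windows and in 1.47% of all windows. The windows of starts 3, 4 and 5 hold the same CCATATATGG and that of start 2 holds CCTTTTTTGG, so the 4 windows do not hold separate boxes. Nr4a1 also held 1 EGR element, GCGGGGGCG read on the opposite strand, at bases -60 to -52, which 2.57% of windows hold. Nr4a2 held 1 MEF2 box at bases -167 to -158, found in 2.92% of windows, and Nab2 held none of the 8 motifs searched. The full cAMP response element TGACGTCA, the second EGR form GCGTGGGCG, the NR4A element AAAGGTCA and the ETS core CCGGAAG had no match in these windows, which says only that those letters are not there. A match describes the letters and is not evidence that a factor bound them in these cells.

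Total counts ran from 2892874 to 19806730 per library, with 11427 to 13591 genes detected. The label of CD8+ T cells was matched by the data: all 10 T cell markers, Cd3e, Cd8a and Cd8b1 among them, had counts in every library. Their summed level was 11425 to 12482 CPM in unstimulated and 5278 to 8309 in stimulated libraries. CPM is the read count scaled by the effective library size. The 18 dendritic cell markers summed to 674 to 1569 CPM in unstimulated, 228 to 480 in IF 8 h, 882 to 1249 in DC 8 h, 377 to 638 in IF 22 h and 493 to 655 in DC 22 h libraries. Zbtb46, a defining dendritic cell factor, was at 0 in all unstimulated and IF 8 h libraries. Fscn1, a marker of mature dendritic cells, averaged 142 CPM in DC 8 h and 85.1 in DC 22 h against 2.31 in unstimulated, 0.489 in IF 8 h and 23.7 in IF 22 h libraries. Other markers of the list ran the other way: Xcr1, a receptor gene of cross-presenting dendritic cells, was at 9.54 to 45.6 CPM in unstimulated libraries and at most 3.35 CPM in DC libraries. Itgax was at 12.8 to 16.3 CPM in unstimulated and 11.06 to 15.3 CPM in IF 8 h libraries, against 3.82 to 6.93 CPM in DC 8 h. Of the 14 markers tested, 1, 2, 2 and 2 were higher and 5, 0, 3 and 4 lower than in unstimulated cells in IF 8 h, DC 8 h, IF 22 h and DC 22 h. B cell markers summed to at most 35.1 CPM, CD4 T cell and NK cell markers to at most 18.3 CPM and myeloid markers to at most 10.7 CPM in any library. IF 22 h replicates 2 and 3 stood apart, with 0.179% and 0.146% of counts in mitochondrial ribosomal RNA against 1.82% to 4.49% elsewhere. In both, 109 genes, none of them a member, lay over 2-fold below all 13 other libraries. DC replicate 2 also stood apart. Of 8264 genes, 95 lay over 2-fold above the other DC replicates at 8 h and at 22 h, against 0 for replicate 1 and 5 for replicate 3. Another 92 lay over 2-fold below them at both times, against 2 for replicate 1 and 16 for replicate 3. Those 95 included Nr4a1 and Egr2 and, of the gene lists used here, Fosb, Myc, Trib1, Irf4, Sema7a, Tnfrsf9 and the heat shock genes Hsp90aa1 and Hsph1. Values are scaled by TMM. With library size alone the median log2 difference of all genes from unstimulated cells moved from 0.02, 0.04, 0.01 and 0.04 to 0.26, 0.30, 0.22 and 0.37 in IF 8 h, DC 8 h, IF 22 h and DC 22 h. No called difference of a member changed sign, while the uncalled DC 22 h differences of Egr2 and Nab2 turned to 0.06 and 0.16. The share of calls that were higher than in unstimulated cells moved with it, from 39.2%, 40.3%, 43.3% and 43.9% to 76.3%, 79.6%, 74.1% and 85.4%, and that between IF and DC at 22 h from 50.6% to 32.8%.

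Across the 8 genes, and against unstimulated cells at 0 h, Egr2 and Nab2 rose with IF at both times and not past the test with DC. Egr1 and Nr4a2 fell with DC at 22 h, and Ier2 fell in 3 of the 4 stimulated groups. At 22 h Nr4a2, Egr1, Egr2 and Nab2 were all higher in IF than in DC libraries, by 2.97-fold to 8.92-fold. Nr4a1 passed the test in none of the 9 comparisons of the fit reported here, and in 1 of them with no low-count filter. In these bulk libraries fewer cells with a transcript and less transcript per cell cannot be told apart. A difference passed the test when its edgeR quasi-likelihood p-value, adjusted over all 10831 genes by the Benjamini-Hochberg method, was under 0.05; differences are log2 fold changes with their standard errors (SE).

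**Figure D1:**
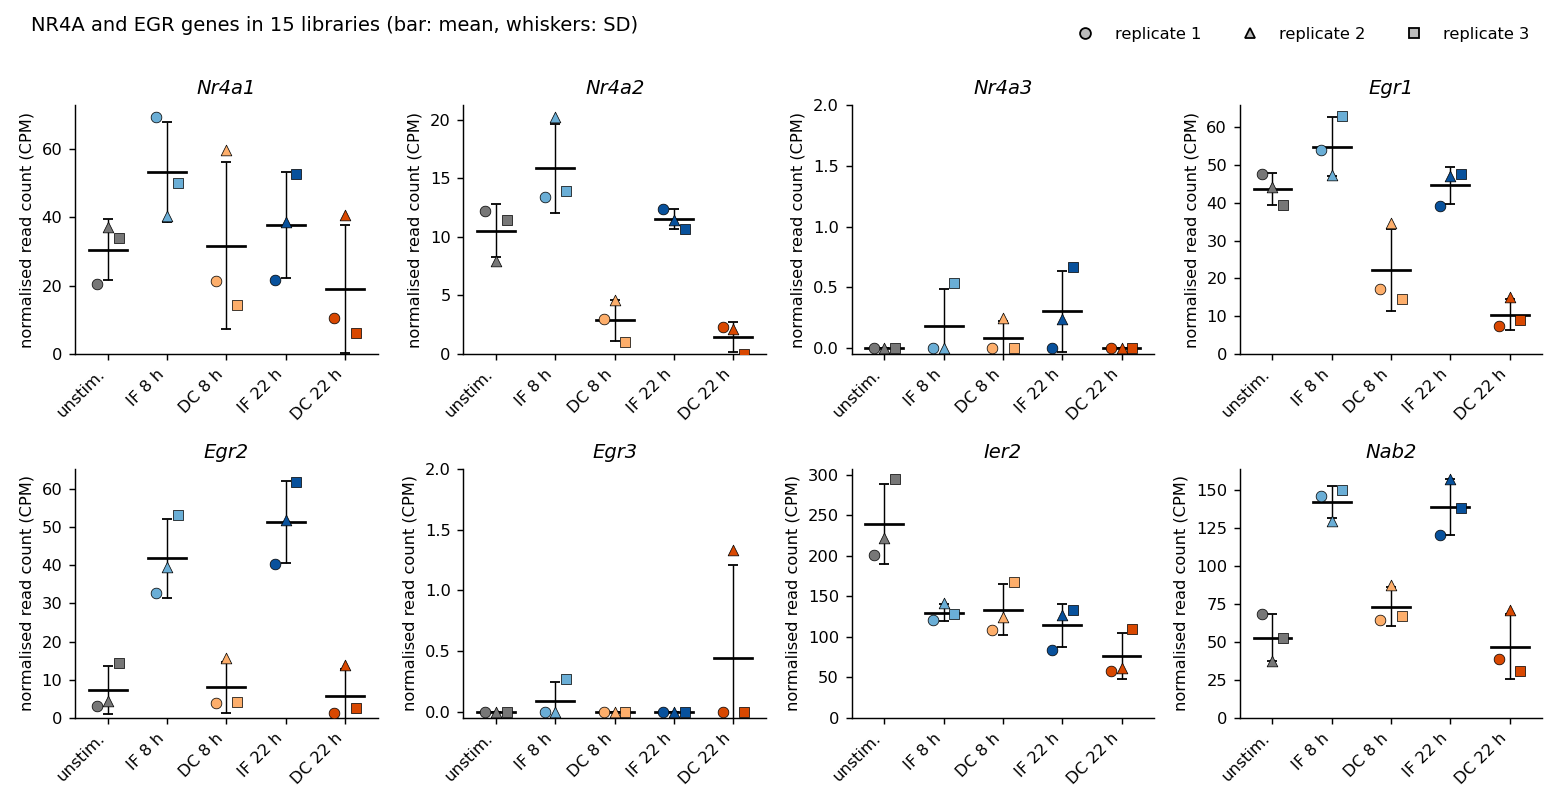
Normalised read count (CPM, linear axis) of the 8 genes in each library, with 1 panel a gene, points for the 3 replicates of each group, bars for the mean and whiskers for the SD. Egr2 and Nab2 stood higher in all 6 IF libraries than in the unstimulated ones, Egr1 was lowest in DC 22 h, and Nr4a3 and Egr3 stayed at or near 0.

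Among the nuclear receptors, Nr4a1 was measured at 20.6, 37.2 and 34.0 CPM in unstimulated replicates 1, 2 and 3, at 69.4, 40.4 and 50.1 CPM in IF 8 h and at 21.8, 38.7 and 52.8 CPM in IF 22 h. It was at 21.3, 59.6 and 14.2 CPM in DC 8 h and at 10.6, 40.6 and 6.15 CPM in DC 22 h. All IF 8 h libraries were above all unstimulated ones, while the DC groups spread widely, with replicate 2 the highest at both times. Nr4a1 was 0.81 ± 0.59 (log2, SE) higher in IF 8 h than in unstimulated cells, with an edgeR adjusted p of 0.439. It was 0.99 ± 0.58 higher in IF than in DC at 22 h, with an edgeR adjusted p of 0.451. Its group means ran from IF 8 h (53.3 ± 14.7 CPM, SD, n = 3) through IF 22 h (37.8 ± 15.5), DC 8 h (31.7 ± 24.4) and unstimulated (30.6 ± 8.84) to DC 22 h (19.1 ± 18.7). No neighbours in that order differed past the test. Without DC 22 h replicate 2 the IF excess at 22 h was 2.18 ± 0.54, with an edgeR adjusted p of 0.0426. With no low-count filter it was 1.00 ± 0.29 and also passed (edgeR adjusted p = 0.0209).

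Nr4a2, the paralog NURR1, stood at 12.2, 7.95 and 11.4 CPM in unstimulated libraries, at 13.4, 20.2 and 13.9 CPM in IF 8 h and at 12.4, 11.5 and 10.7 CPM in IF 22 h. In DC 8 h it was at 2.97, 4.60 and 1.03 CPM, and in DC 22 h at 2.28 and 2.10 CPM with 0 counts in replicate 3, where 0 counts allow up to 0.256 CPM. Every DC library was therefore below every IF and unstimulated library. Nr4a2 was 7.38-fold lower in DC 22 h than in unstimulated cells (log2 -2.88 ± 0.69, edgeR adjusted p = 0.0169). It was 8.07-fold higher in IF than in DC at 22 h (3.01 ± 0.69, edgeR adjusted p = 0.0282). At 8 h the corresponding differences were -1.86 ± 0.65 (edgeR adjusted p = 0.105) and 2.44 ± 0.66 (edgeR adjusted p = 0.137), which did not pass the test although the groups did not overlap. In IF the gene differed from unstimulated cells by 0.58 ± 0.62 at 8 h and 0.13 ± 0.61 at 22 h (edgeR adjusted p = 0.626 and 0.938). The group means were 15.8 ± 3.80 CPM in IF 8 h, 11.5 ± 0.856 in IF 22 h, 10.5 ± 2.25 in unstimulated, 2.86 ± 1.79 in DC 8 h and 1.46 ± 1.27 in DC 22 h. Neighbours in this order did not differ past the test. The call between IF and DC at 22 h was lost without IF 22 h replicate 2 (edgeR adjusted p = 0.0841), IF 22 h replicate 3 (0.0734) or DC 22 h replicate 1 (0.0547). That between DC 22 h and unstimulated cells was lost without unstimulated replicate 1 (edgeR adjusted p = 0.0571) and in a fit of those 6 libraries alone (0.0880). Without DC 22 h replicate 3, the library with 0 counts, these differences were -2.26 from unstimulated cells and 2.39 between IF and DC (edgeR adjusted p = 0.00743 and 0.0156).

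Nr4a3, which encodes NOR1, was close to the limit of detection, with 19 counts in all 15 libraries together and 0 counts in 11 of them. Of these counts 13 were in IF 22 h replicate 3, the deepest library, and 2 each in IF 8 h replicate 3, DC 8 h replicate 2 and IF 22 h replicate 2. The highest level was 0.664 CPM, so no difference between groups was detectable at this depth.

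Egr1, the EGR factor most often used as a marker of ERK signalling, was at 47.6, 44.1 and 39.3 CPM in unstimulated libraries, at 54.1, 47.4 and 63.0 CPM in IF 8 h and at 39.04, 47.0 and 47.7 CPM in IF 22 h. It was at 17.2, 34.5 and 14.7 CPM in DC 8 h and at 7.40, 15.04 and 8.89 CPM in DC 22 h. The DC libraries lay below all IF and unstimulated libraries at both times. Egr1 was 4.19-fold lower in DC 22 h than in unstimulated cells (log2 -2.07 ± 0.31, edgeR adjusted p = 0.000685). It was 4.27-fold higher in IF than in DC at 22 h (2.10 ± 0.31, edgeR adjusted p = 0.00114). At 8 h it was different in DC by -0.98 ± 0.30 from unstimulated cells (edgeR adjusted p = 0.0586) and IF exceeded DC by 1.31 ± 0.30 (edgeR adjusted p = 0.0578), both short of the threshold. IF differed from unstimulated cells by 0.33 ± 0.30 at 8 h and 0.03 ± 0.29 at 22 h (edgeR adjusted p = 0.551 and 0.975). The order of the means was IF 8 h (54.8 ± 7.80 CPM), IF 22 h (44.6 ± 4.81), unstimulated (43.7 ± 4.13), DC 8 h (22.1 ± 10.8) and DC 22 h (10.4 ± 4.05), with no neighbours apart past the test. Both calls at 22 h held with any single library left out. At 8 h the DC difference from unstimulated cells then ran from -1.45 to -0.75 (edgeR adjusted p = 0.00695 to 0.197). The excess of IF over DC at 8 h ran from 1.07 to 1.78 (edgeR adjusted p = 0.00777 to 0.259).

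Egr2, whose product drives restraining genes such as Cblb, was at 2.94, 4.34 and 14.4 CPM in unstimulated libraries, at 32.8, 39.5 and 53.3 CPM in IF 8 h and at 40.4, 51.9 and 62.0 CPM in IF 22 h. It was at 3.96, 15.8 and 4.11 CPM in DC 8 h and at 1.14, 13.7 and 2.56 CPM in DC 22 h. All 6 IF libraries were above all 9 others, unstimulated replicate 3 was the highest of its group, and replicate 2 was the highest of both DC groups. Egr2 rose 5.98-fold in IF 8 h (log2 2.58 ± 0.74, edgeR adjusted p = 0.0429) and 7.37-fold in IF 22 h (2.88 ± 0.73, edgeR adjusted p = 0.0281) against unstimulated cells. It differed by 0.19 ± 0.74 in DC 8 h and -0.28 ± 0.74 in DC 22 h (edgeR adjusted p = 0.924 and 0.871). IF exceeded DC 8.92-fold at 22 h (3.16 ± 0.73, edgeR adjusted p = 0.0283), and at 8 h by 2.39 ± 0.71 (edgeR adjusted p = 0.198). The means were 51.4 ± 10.8 CPM in IF 22 h, 41.9 ± 10.5 in IF 8 h, 7.95 ± 6.78 in DC 8 h, 7.23 ± 6.27 in unstimulated and 5.81 ± 6.89 in DC 22 h. Again neighbours did not differ past the test. The 3 calls depended on single libraries: that at IF 8 h was lost without unstimulated replicate 1 or 2 or any IF 8 h library (edgeR adjusted p = 0.0736 to 0.155). That at IF 22 h was lost without unstimulated replicate 1 or 2 or IF 22 h replicate 2 or 3 (0.0687 to 0.123). Without unstimulated replicate 3 the differences were 3.52 at IF 8 h and 3.83 at IF 22 h (edgeR adjusted p = 0.0315 and 0.0245), and with any other single library left out they ran from 2.17 to 2.72 and from 2.48 to 3.03. The call between IF and DC at 22 h was lost without IF 22 h replicate 2 or 3 or DC 22 h replicate 1 or 3 (edgeR adjusted p = 0.0834 to 0.1002), while the difference ran from 2.68 to 4.74, the highest without DC 22 h replicate 2.

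Egr3 had 13 counts in all, of which 12 were in DC 22 h replicate 2 and 1 in IF 8 h replicate 3, and it was at 0 in 13 libraries. Its highest level was 1.33 CPM, in a library that stood apart in other genes too, and no comparison was made.

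Nab2, the EGR corepressor, was at 68.3, 37.05 and 52.6 CPM in unstimulated libraries, at 146, 129.6 and 149.8 CPM in IF 8 h and at 120.2, 157 and 138 CPM in IF 22 h. It was at 64.5, 87.6 and 66.9 CPM in DC 8 h and at 38.6, 70.9 and 30.6 CPM in DC 22 h. As with Egr2, every IF library was above every other library. Nab2 rose 2.69-fold in IF 8 h (log2 1.43 ± 0.28, edgeR adjusted p = 0.00487) and 2.63-fold in IF 22 h (1.39 ± 0.28, edgeR adjusted p = 0.00600). In DC it differed from unstimulated cells by 0.47 ± 0.27 at 8 h and -0.18 ± 0.27 at 22 h (edgeR adjusted p = 0.349 and 0.761). IF exceeded DC 2.97-fold at 22 h (1.57 ± 0.27, edgeR adjusted p = 0.00489), and at 8 h by 0.96 ± 0.27 (edgeR adjusted p = 0.165) with no overlap of the libraries. The means were 141.7 ± 10.7 CPM in IF 8 h, 138 ± 18.4 in IF 22 h, 73.0 ± 12.7 in DC 8 h, 52.6 ± 15.6 in unstimulated and 46.7 ± 21.3 in DC 22 h. No neighbours differed past the test. The 3 calls held with any single library left out.

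Ier2, an immediate early gene induced by many stimuli, was at 201, 222 and 295 CPM in unstimulated libraries, at 120.2, 141 and 128 CPM in IF 8 h and at 83.2, 127 and 132 CPM in IF 22 h. It was at 108, 125 and 168 CPM in DC 8 h and at 57.8, 61.4 and 109 CPM in DC 22 h. All 12 stimulated libraries were below all 3 unstimulated ones. Ier2 fell 3.14-fold in DC 22 h (log2 -1.65 ± 0.26, edgeR adjusted p = 0.00100), 2.09-fold in IF 22 h (-1.07 ± 0.26, edgeR adjusted p = 0.0204) and 1.85-fold in IF 8 h (-0.88 ± 0.26, edgeR adjusted p = 0.0448). The DC 8 h difference of -0.84 ± 0.25 came with an edgeR adjusted p of 0.0577. IF and DC differed by -0.04 ± 0.25 at 8 h and 0.58 ± 0.25 at 22 h (edgeR adjusted p = 0.994 and 0.275). The means were 239 ± 49.5 CPM in unstimulated, 134 ± 31.03 in DC 8 h, 129.7 ± 10.7 in IF 8 h, 114 ± 26.9 in IF 22 h and 76.2 ± 28.7 in DC 22 h. As above, neighbours did not differ past the test. The call at IF 8 h was lost without any 1 of its 6 libraries (edgeR adjusted p = 0.0581 to 0.172). That at IF 22 h was lost without unstimulated replicate 3 or IF 22 h replicate 1 or 2 (0.0509 to 0.0989), and that at DC 22 h held in each case. With library size alone the IF 8 h difference was -0.64 ± 0.25 and lost the call (edgeR adjusted p = 0.106). With counts thinned to the smallest library it was -0.84 ± 0.26 and lost it too (edgeR adjusted p = 0.0559).

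**Figure D2:**
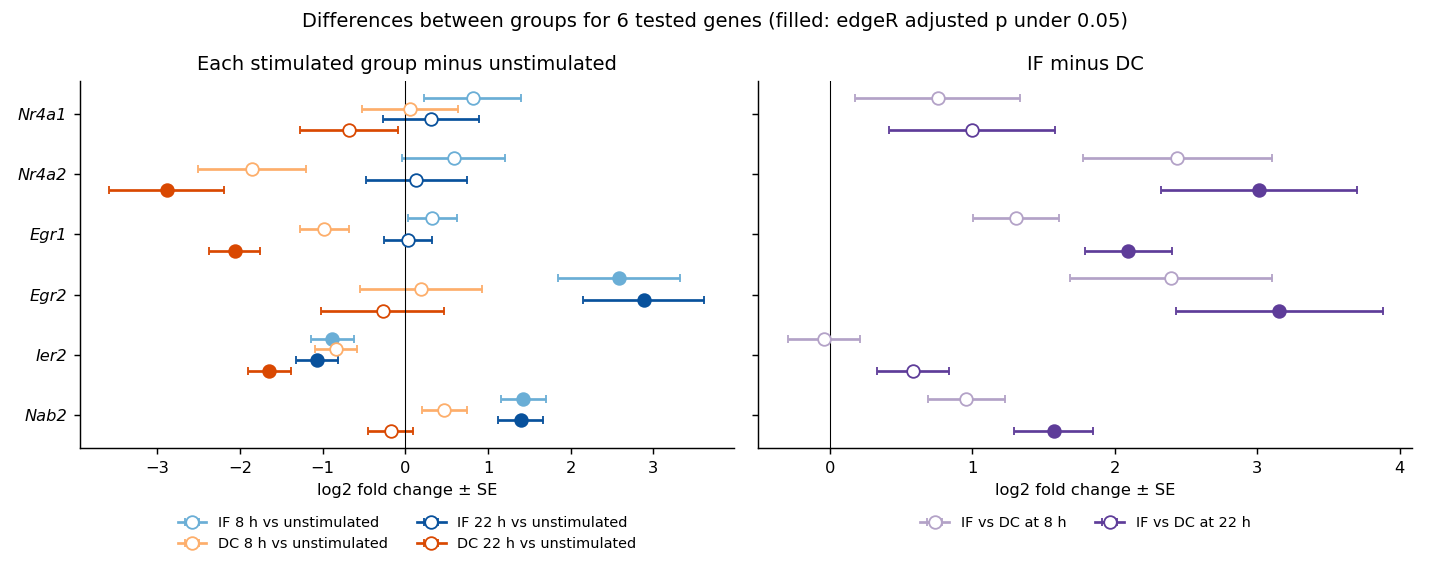
Log2 fold change with its standard error (horizontal axis) of the 6 tested genes, for each stimulated group against unstimulated cells on the left and for IF against DC on the right, with filled points where the edgeR adjusted p was under 0.05. Nr4a2, Egr1, Egr2 and Nab2 passed the test between IF and DC at 22 h and none did at 8 h, and Ier2 lay below 0 in all 4 stimulated groups.

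Read by comparison, in IF 8 h against unstimulated cells 2 of the 6 tested genes rose (Egr2 and Nab2) and 1 fell (Ier2), where 7.76% of all tested genes passed in either direction, 3.04% higher and 4.72% lower. The libraries of both groups did not overlap for 5 of the 6, against 30.6% of all genes, namely Nr4a1, Nr4a2, Egr2, Ier2 and Nab2. DC 8 h against unstimulated cells gave 0 calls among the 6 by edgeR, 3 at an unadjusted p under 0.05 (Nr4a2, Egr1 and Ier2, all lower) and 3 by DESeq2. Of all genes 6.82% passed by edgeR, 2.75% higher and 4.07% lower, 20.9% had such an unadjusted p and 10.8% passed by DESeq2. The same 3 did not overlap, against 28.2% of all genes. IF 22 h gave 2 higher (Egr2 and Nab2) and 1 lower (Ier2), where 6.08% of all genes passed, 2.63% higher and 3.44% lower, and these 3 did not overlap, against 30.4%. DC 22 h gave 0 higher and 3 lower (Nr4a2, Egr1 and Ier2), where 7.76% of all genes passed, 3.41% higher and 4.35% lower, and these 3 did not overlap, against 27.1%. All 6 log2 values were below 0 with TMM scaling, but not those of Egr2 and Nab2 with library size alone. The median log2 difference of the 6 was 0.70 in IF 8 h, -0.39 in DC 8 h, 0.22 in IF 22 h and -1.16 in DC 22 h; over all tested genes it was between 0.01 and 0.04 in each. These 4 comparisons share the unstimulated libraries.

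Between the stimuli at 22 h, 4 of the 6 genes were higher in IF and 0 lower, where 2.43% of all genes passed, 1.23% higher and 1.2% lower. DESeq2 also called 4 of the 6, against 5.2% of all genes. At an unadjusted edgeR p under 0.05 there were 5 of the 6, Ier2 besides these 4, against 15.3% of all genes. The 4 genes whose libraries did not overlap were the same, against 19.9% of all genes. At 8 h edgeR called 0 of the 6, with 4 at an unadjusted p under 0.05 (Nr4a2, Egr1, Egr2 and Nab2, all higher in IF) and 3 called by DESeq2. Of all genes 0.665% passed by edgeR, 0.231% higher and 0.434% lower, 8.27% had such an unadjusted p and 1.8% passed by DESeq2. These 4 did not overlap, against 13.5% of all genes. The median of the 6 was 1.13 at 8 h and 1.83 at 22 h, against -0.01 and -0.02 over all genes. Whether the difference between the stimuli itself changed from 8 h to 22 h was tested as an interaction, which edgeR called for 0 of the 6 and for 0% of all genes. In the interaction 0 of the 6 had an unadjusted p under 0.05 and DESeq2 called 0 of them, while of all genes 858 (7.92%) had such a p and DESeq2 called 40 (0.369%). All 6 interaction values were above 0, from 0.24 ± 0.82 for Nr4a1 to 0.79 ± 0.42 for Egr1 (edgeR adjusted p = 0.978 and 0.661), so a larger gap at 22 h than at 8 h was not shown. Dendritic cell markers moved with the stimulus at 8 h, where 4 of the 14 tested were lower in IF and 0 higher and their sums did not overlap, while at 22 h 1 was lower and 1 higher and the sums overlapped. T cell markers moved too, with 1 of 10 higher in IF at 8 h (Cd5) and 4 at 22 h (Cd3e, Cd3g, Cd2 and Cd5), and 0 lower. The 5 B cell markers of the table summed to 18.3 to 35.1 CPM in IF 22 h and 4.76 to 12.5 CPM in DC 22 h libraries, without overlap. The 5 CD4 T cell and NK cell markers summed to 15.4 to 18.3 CPM in IF 22 h and 1.11 to 7.51 CPM in DC 22 h, also without overlap. At 8 h the sums of both lists overlapped, with B cell markers at 7.31 to 33.2 CPM in IF and 3.35 to 10.1 CPM in DC, and CD4 T cell and NK cell markers at 8.74 to 14.3 CPM in IF and 5.15 to 9.84 CPM in DC. Of their defining genes, Cd4 was at 0 in every library but IF 22 h replicate 3 (1.48 CPM), and the B cell factor gene Ebf1 in every library but IF 22 h replicate 2 (0.598 CPM). The part of any of these marker lists in the results was not tested.

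Over time within a stimulus, edgeR called 0 of the 6 genes between IF 8 h and IF 22 h, with 0 at an unadjusted p under 0.05 and 0 by DESeq2. Of all genes 1.12% passed by edgeR, 0.637% higher and 0.48% lower, 15% had such an unadjusted p and 3.38% passed by DESeq2. The largest of these values was -0.50 ± 0.58 for Nr4a1 (edgeR adjusted p = 0.747). Between DC 8 h and DC 22 h edgeR also called 0 of the 6, with 3 at an unadjusted p under 0.05 and 1 by DESeq2 (Egr1). Of all genes 0.48% passed by edgeR, 0.379% higher and 0.102% lower, 9.03% had such an unadjusted p and 1.94% passed by DESeq2. All 6 values were below 0, with Egr1 at -1.09 ± 0.31 (edgeR adjusted p = 0.166), Ier2 at -0.81 ± 0.26 (edgeR adjusted p = 0.235) and Nab2 at -0.65 ± 0.27 (edgeR adjusted p = 0.461). The deviations from the group means correlated at 0.116, 0.399 and 0.238 for the same-tag pairs of these 2 groups, and at -0.307 to 0.117 for the 6 pairs with different tags. Of those 6, the 2 that join replicates 1 and 3 were at 0.107 and 0.117, so the tags of replicates 1 and 3 were not clearly told apart. Within the same-tag pairs all 6 genes were lower at 22 h than at 8 h in each of the 3 pairs, as were 19.4% of all tested genes. In a fit of the DC libraries alone with the tag as a replicate block, an alternative chosen after seeing the data, edgeR called 1 of the 6, Ier2 (-0.85 ± 0.14, adjusted p = 0.0188), and 166 of all genes. In that fit Egr1 was at -1.06 ± 0.22, Nr4a1 at -0.91 ± 0.20 and Nab2 at -0.73 ± 0.18 (edgeR adjusted p = 0.0528, 0.0639 and 0.0801). With the block over all 15 libraries edgeR called 0 of the 6 and 49 of all genes.

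Several calls changed when libraries that stood apart were left out, as some did without libraries that did not stand apart. Without IF 22 h replicates 2 and 3 together, no call of a member held against unstimulated or DC cells at 22 h, although the differences between IF and DC at 22 h stayed at 3.11 for Nr4a2, 1.90 for Egr1, 2.80 for Egr2 and 1.36 for Nab2 (edgeR adjusted p = 0.321, 0.147, 0.484 and 0.281). Against unstimulated cells Egr2 was then at 2.53, Nab2 at 1.19 and Ier2 at -1.52 (edgeR adjusted p = 0.304, 0.189 and 0.0820). That fit has a lone IF 22 h library, which is assumed to vary like the other groups. Without DC replicate 2 at both times, an alternative chosen after seeing the data, Nr4a1 was lower in DC 22 h than in unstimulated cells by a log2 of -1.85 ± 0.40 (edgeR adjusted p = 0.0104). It was also higher in IF than in DC at 22 h by 2.18 ± 0.40 (edgeR adjusted p = 0.00660). In the same fit IF exceeded DC at 8 h for Egr1 by 1.78 ± 0.21, for Egr2 by 3.37 ± 0.53 and for Nab2 by 1.11 ± 0.21 (edgeR adjusted p = 0.000839, 0.00472 and 0.0207). Egr1 was also lower in DC 8 h than in unstimulated cells by a log2 of -1.46 ± 0.20 (edgeR adjusted p = 0.000492). Replicate 2 was picked out by genes high in it, Nr4a1 and Egr2 among them. Leaving it out therefore lowers the DC levels of Nr4a1 and Egr2 by choice, and their p-values in that fit carry no weight as a test. With only the IF 22 h and DC 22 h libraries in the fit, Egr1 kept its call at 22 h, and Nr4a2, Egr2 and Nab2 lost theirs (edgeR adjusted p = 0.197, 0.123 and 0.0691). The cause of the separate position of these libraries was not tested.

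**Figure D3:**
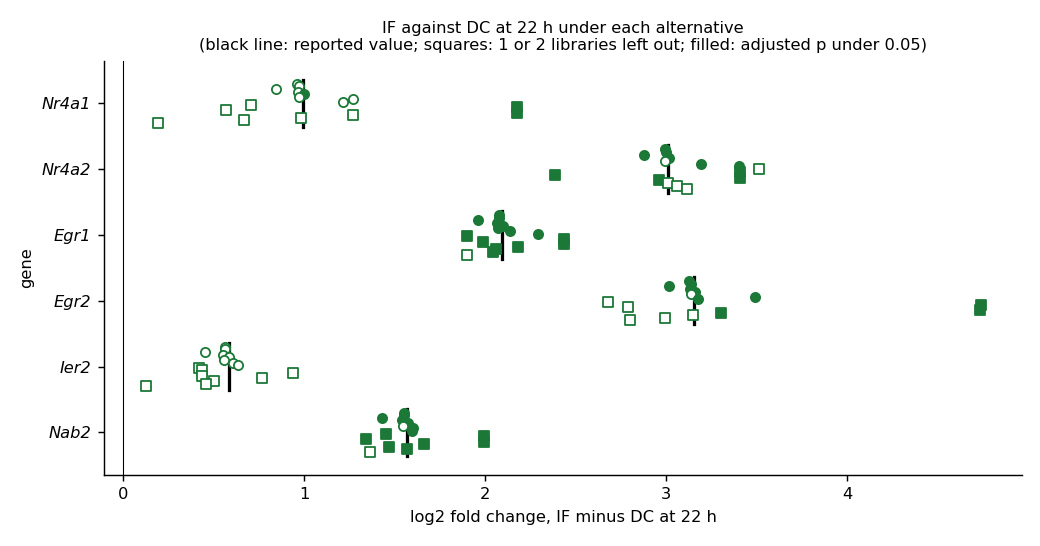
Log2 fold change of IF against DC at 22 h (horizontal axis) for the 6 tested genes, with a black line at the reported value, circles for other processing settings, squares for fits without 1 or 2 libraries, and filled symbols where the adjusted p was under 0.05. Egr1 lost the call only without IF 22 h replicates 2 and 3 together. Nr4a2, Egr2 and Nab2 lost it in more settings, among them the fit of the groups compared alone, and Nr4a2 and Egr2 also with some single libraries left out. Nr4a1 gained it with no low-count filter and without DC 22 h replicate 2, alone or together with DC 8 h replicate 2.

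The other immediate early genes, which share the fast induction of the members, mostly fell or did not pass the test. All 33 listed genes have a row, and 30 were tested; Dusp5, Fosl1 and Ier5l had too few counts. Against unstimulated cells, 0 rose and 16 fell in IF 8 h, 1 rose and 13 fell in DC 8 h, 0 rose and 19 fell in IF 22 h, and 0 rose and 19 fell in DC 22 h, with median log2 differences of -1.05, -0.94, -1.47 and -1.56. The share of all genes called in each comparison is the one given with the members. Fos, the AP-1 subunit, had 219, 257 and 400 CPM in unstimulated libraries and at most 8.56 CPM in any stimulated one, with log2 differences of -5.74 ± 0.48, -5.97 ± 0.47, -6.58 ± 0.49 and -7.78 ± 0.53 in IF 8 h, DC 8 h, IF 22 h and DC 22 h (edgeR adjusted p at most 2.4e-06). Those of Junb were -3.05 ± 0.18, -1.85 ± 0.17, -3.42 ± 0.18 and -2.38 ± 0.17 in the same order, and those of Dusp1, which encodes a MAP kinase phosphatase, -3.71 ± 0.33, -3.47 ± 0.32, -4.37 ± 0.33 and -4.84 ± 0.34 (edgeR adjusted p at most 8.58e-06). Jun, Klf4, Fosb, Ppp1r15a, Zfp36, Tnfaip3 and Klf6 also fell in all 4 groups. Rgs1, Ier5, Csrnp1 and Maff fell in IF 8 h, IF 22 h and DC 22 h; Jund in IF 8 h, DC 8 h and DC 22 h; Cd69 and Sik1 at 22 h with both stimuli; Fosl2 with DC at both times; and Gem in DC 8 h and IF 22 h. Klf10 passed the test in IF 8 h, Nfkbia and Trib1 in IF 22 h and Dusp2 in DC 22 h, all lower, while Atf3, Ier3, Btg2, Myc, Per1 and Egr4 passed it in none of the 4. Gadd45b, a stress-response gene, rose, from 24.07, 19.2 and 30.03 CPM in unstimulated to 52.9, 121 and 42.7 CPM in DC 8 h (log2 1.57 ± 0.38, edgeR adjusted p = 0.0176).

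Between IF and DC at 8 h 0 of these 30 genes were higher in IF and 2 lower, Junb (-1.19 ± 0.17, edgeR adjusted p = 0.00144) and Nfkbia (-1.02 ± 0.18, edgeR adjusted p = 0.0126). At 22 h 1 was higher in IF, the phosphatase gene Dusp2 (1.22 ± 0.24, edgeR adjusted p = 0.0124), and 4 were lower, Jun, Nfkbia, Junb and Gadd45b. Jun was at 5.84 ± 1.85 CPM in IF 22 h and 70.8 ± 56.8 CPM in DC 22 h (SD, n = 3), a log2 difference of -3.63 ± 0.47 (edgeR adjusted p = 0.000491). The median was -0.18 at 8 h and -0.07 at 22 h, beside 1.13 and 1.83 for the 6 members. Over time, 4 of 30 fell from 8 h to 22 h with IF (Jun, Ppp1r15a, Nfkbia and Tnfaip3) and 3 with DC (Ppp1r15a, Dusp2 and Cd69), and edgeR called 0 in the interaction, with 6 at an unadjusted p under 0.05 and 1 by DESeq2. Egr4, the remaining EGR gene, was at 0 in all unstimulated and IF 8 h libraries, at most 1.09 CPM in DC 8 h, at 1.19, 4.30 and 2.35 CPM in IF 22 h and at 0, 2.65 and 0 CPM in DC 22 h.

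**Figure D4:**
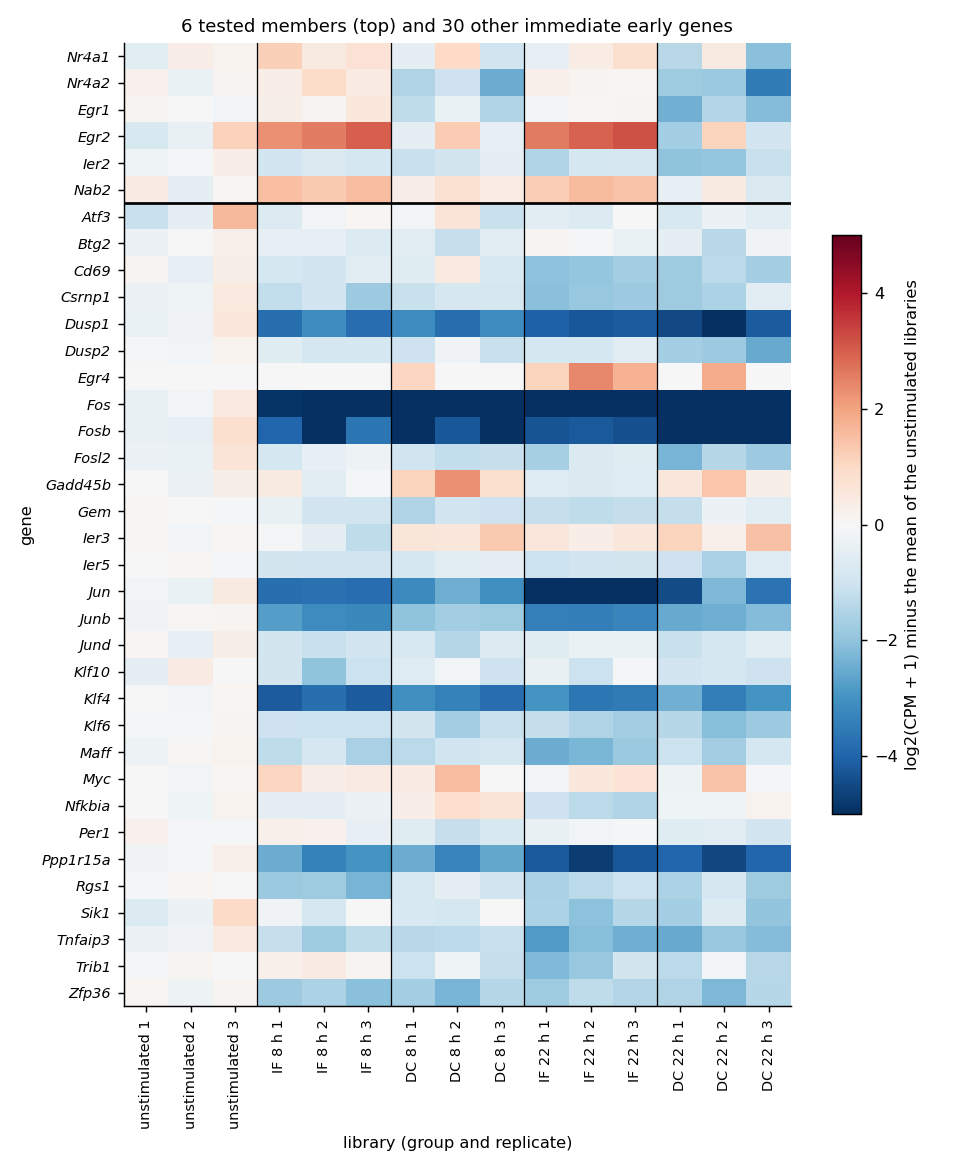
Level of the 6 tested members (above the line) and 30 other immediate early genes (below it) in each library, as log2(CPM + 1) minus the mean of the 3 unstimulated libraries, with red higher and blue lower. Egr2 and Nab2 are red in the IF columns, while Fos, Fosb, Jun, Junb, Dusp1, Klf4 and Ppp1r15a are blue in all stimulated columns.

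Of the heat shock genes, listed as a sign of cell stress, 3 fell from unstimulated to stimulated libraries and most did not pass the test. Of the 12 tested, Hspa1a, Hspa1b and Dnajb1 fell in all 4 stimulated groups, Hspd1 rose in DC 22 h, and 0 differed between IF and DC by edgeR, with 0 at 8 h and 2 at 22 h at an unadjusted p under 0.05 and 0 and 1 by DESeq2. The share of all genes called in each comparison is the one given with the members. Hspa1b, an inducible chaperone, was at 132 to 365 CPM in unstimulated libraries and at most 1.11 CPM in the stimulated ones, and Hspa1a at 21.1 to 81.5 CPM and at most 0.297 CPM. The summed level of the 12 was 5150 to 6213 CPM in unstimulated and 4639 to 10582 CPM in stimulated libraries, and the median log2 difference from unstimulated cells was between -0.10 and 0.18 in the 4 groups. The highest sums, 8362 and 10582 CPM, were those of replicate 2 in DC 8 h and DC 22 h, the libraries with the most Nr4a1 and Egr2 of their groups, while no other library was above 6683 CPM. Hsp90aa1, a cytosolic chaperone gene, was at 864 and 1171 CPM in that pair of libraries and at 296 to 510 CPM in the other DC libraries. The part of these heat shock genes in the high Nr4a1 and Egr2 of DC replicate 2 was not tested. The part of the fall of Hspa1a, Hspa1b and Dnajb1 in the fall of Ier2 and the other immediate early genes was not tested.

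Among 22 tested regulators that act upstream of the members, 2, 2, 1 and 2 passed the test in IF 8 h, DC 8 h, IF 22 h and DC 22 h. Of all genes 7.76%, 6.82%, 6.08% and 7.76% passed there. Between IF and DC the number was 0 at 8 h and 3 at 22 h, against 0.665% and 2.43% of all genes. Nfatc1, the calcium-driven NFAT factor of activated T cells, was at 97.8, 100.5 and 125 CPM in unstimulated libraries, 180.2, 191 and 231 CPM in IF 8 h and 242, 241 and 294 CPM in IF 22 h. It was at 108, 166 and 106 CPM in DC 8 h and at 101.5, 155 and 86.1 CPM in DC 22 h, again with replicate 2 highest. Nfatc1 rose in IF 8 h by 0.90 ± 0.23 (edgeR adjusted p = 0.0236) and in IF 22 h by 1.27 ± 0.23 (edgeR adjusted p = 0.00304), and was 1.18 ± 0.23 higher in IF than in DC at 22 h (edgeR adjusted p = 0.00926). Hdac7, a class IIa deacetylase that represses Nr4a1 in thymocytes, fell in IF 8 h (-0.62 ± 0.16), DC 8 h (-1.26 ± 0.16) and DC 22 h (-0.99 ± 0.16), with edgeR adjusted p of 0.0254, 0.000163 and 0.00110. It was higher in IF than in DC at 22 h by 0.62 ± 0.16 (edgeR adjusted p = 0.0483). Nfatc2 fell in DC 8 h (-1.11 ± 0.28, edgeR adjusted p = 0.0229). The calcineurin inhibitor gene Cabin1 fell in DC 22 h (-0.69 ± 0.18, edgeR adjusted p = 0.0249) and the ETS factor gene Elk3 was higher in IF than in DC at 22 h (0.95 ± 0.21, edgeR adjusted p = 0.0206). Srf, the serum response factor gene, averaged 51.3 to 77.7 CPM over the groups, and its edgeR adjusted p was at least 0.146 in every comparison. Of 8 tested partners, which include the RXR receptors that pair with NR4A proteins and the coactivators CBP and p300, Nab1 fell in IF 8 h, with a log2 difference of -1.18 ± 0.25 (edgeR adjusted p = 0.0102), from 26.8 ± 2.72 to 11.7 ± 3.03 CPM (SD, n = 3). Nab1 encodes the paralog of NAB2, and in the same comparison Nab2 rose.

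Of 18 listed genes known as targets of EGR2 or EGR3, 16 were tested, and 6 rose and 1 fell in IF 8 h, 5 and 1 in DC 8 h, 6 and 1 in IF 22 h, and 6 and 1 in DC 22 h. Of all genes 7.76%, 6.82%, 6.08% and 7.76% passed in those comparisons, in either direction. Cblb, an E3 ligase that restrains receptor signalling, rose in all 4 groups, by 1.71 ± 0.20 and 1.70 ± 0.20 with IF and by 1.17 ± 0.19 and 0.83 ± 0.19 with DC at 8 h and 22 h (edgeR adjusted p at most 0.0137). Tnfrsf9, which encodes 4-1BB, rose in all 4 too, from 4.88 ± 1.33 CPM to means of 97.3 to 173.5 CPM, and in the DC groups Egr2 had not passed the test. In replicates 1, 2 and 3 Tnfrsf9 was at 108, 258 and 63.7 CPM in DC 8 h and at 69.0, 191 and 32.3 CPM in DC 22 h. Replicate 2 was thus highest in both, as it was for Egr2. Socs3 fell with IF at both times and rose in DC 22 h, and the other fallers were Nrgn in DC 8 h and Ndrg1 in DC 22 h. At 22 h 5 of the 16 were higher in IF than in DC, namely Nrgn, Dgkz, Ndrg1, Cblb and Id3, and the cytokine signalling inhibitors Socs3 and Socs1 were lower. At 8 h 0 were higher and 2 lower, Socs3 and Cdkn1a. Between IF and DC 2.43% of all genes passed at 22 h and 0.665% at 8 h. Nrgn was at 83.7, 228 and 168 CPM in IF 22 h and at 10.9, 19.2 and 4.02 CPM in DC 22 h (log2 3.82 ± 0.56, edgeR adjusted p = 0.00113). Cblb was 0.87 ± 0.19 higher in IF at 22 h (edgeR adjusted p = 0.0214) and Dgkz, a diacylglycerol kinase gene, 0.83 ± 0.16 (edgeR adjusted p = 0.0106). Socs3 differed by -2.69 ± 0.30 in IF from DC at 22 h (edgeR adjusted p = 0.000133).

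Genes linked to NR4A activity under repeated stimulation were 15 symbols, of which 12 were tested; Lag3 is in this list and the one before. In IF 8 h 4 rose (Ctla4, Bach2, Irf4 and Ikzf2) and 0 fell. In DC 8 h 4 rose (Ctla4, Bach2, Ikzf2 and Batf) and Tox fell. In IF 22 h 3 rose (Ctla4, Lag3 and Bach2) and Runx3 fell, and in DC 22 h 3 rose (Ctla4, Ikzf2 and Bach2) and 0 fell. The share of all genes called in each comparison is the one given with the targets of EGR2 or EGR3. Ctla4, an inhibitory receptor gene, rose by 2.26 ± 0.28, 2.19 ± 0.28, 1.40 ± 0.28 and 2.43 ± 0.28 in IF 8 h, DC 8 h, IF 22 h and DC 22 h (edgeR adjusted p at most 0.00616). Between IF and DC, Batf was lower in IF at 8 h (-0.96 ± 0.21, edgeR adjusted p = 0.0425), and Runx3 and Ctla4 were lower at 22 h (-1.72 ± 0.28 and -1.03 ± 0.25, edgeR adjusted p = 0.00315 and 0.0369). Pdcd1, which encodes PD-1, averaged 0.964 CPM in unstimulated cells and at most 5.89 CPM, in IF 22 h.

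By profile over the 5 group means, centred log2 CPM, the genes most like each member were found among genes of at least 5 CPM by the root mean square difference. Nr4a1 was nearest to Sipa1l2 (0.117), Nr1d2 (0.222) and Arhgap18 (0.223), against a spread of 0.617 of its own profile. Egr1 was nearest to Sipa1l2 (0.290), Ephx1 (0.300) and Itgax (0.301), with Nr4a1 at rank 5, and Nr4a2 was nearest to Egr1 itself (0.565), Zeb2 (0.600) and Lyz1 (0.615). In the other direction Egr1 was at rank 89 and Nr4a2 at rank 7436 from Nr4a1, and Nr4a2 at rank 50 from Egr1. Itgax, the integrin CD11c, is in the dendritic cell marker list and averaged 14.5 CPM in unstimulated, 12.7 in IF 8 h, 5.32 in DC 8 h, 20.02 in IF 22 h and 3.95 in DC 22 h. Egr2 was nearest to Chst2 (0.316), Itm2a (0.398) and Ccl4 (0.411), with Nab2 at rank 16, whereas Egr2 was at rank 6647 from Nab2. Their difference of 0.877 was larger than the spread of the Nab2 profile itself, 0.703. Nab2 was nearest to Ddr1 (0.148), Gpr174 (0.189) and Vat1 (0.197), and Ier2 to Sertad1 (0.104), Athl1 (0.110) and Zfp446 (0.127). These values describe 5 group means and carry no test.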

How the data were processed

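Bulk RNA of 15 libraries, 3 in each of 5 groups, was read as gene counts. The deposited counts are whole numbers per gene and library, not normalised. The submitters' processing notes list BWA and the mm10 build, while the counting program and any use of strand or molecular identifiers are not given in the sources used here. Groups and replicate numbers were taken from the sample titles. Pairing by replicate number was checked as the correlation of deviations from the group means: it was over 0.1 for all 3 same-numbered pairs of DC 8 h and DC 22 h (0.116, 0.399 and 0.238), though also for 2 of their 6 pairs with different numbers, and for none of the 3 pairs in the other comparisons of 2 groups. The members and gene lists were chosen with earlier results of these data known.

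Genes were kept with edgeR filterByExpr (minimum count 10, minimum total 15), scaled by TMM and fitted in 1 model of 5 group means over all 15 libraries by the edgeR 4.0.16 quasi-likelihood test in R 4.3.3. Benjamini-Hochberg adjustment ran over 10831 genes per comparison, two-sided, with a threshold of 0.05. Fold changes use a prior count of 0.125, and SE is the absolute log2 fold change divided by the square root of F. CPM is the count divided by the TMM-scaled total of tested genes. No row lacked a gene name. Limits for 0 counts use 3 counts and cover counting error only. The steps were tested on simulated data.

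The text names the 8 members, up to 3 genes of smallest p per list and comparison, every gene called in the lists of other immediate early genes and of partners, and the 3 genes most like each member. Further genes of the lists were named after their values were seen. Promoter windows came from RefSeq, and motifs were searched on both strands, the CArG and MEF2 boxes by their usual letters and the others as spelled in the text; a TGACGTCA match would also hold TGACG. Alternatives were DESeq2 1.42.0 size factors, library size alone, no filter, a mean of at least 10 CPM, the DESeq2 test, only the groups compared, a replicate block, thinned counts, a threshold of 0.01, each library left out and IF 22 h replicates 2 and 3 left out. Leaving out DC replicate 2 at both times, and a replicate block over the DC libraries alone, were added after seeing the data. The former was chosen through genes that include Nr4a1 and Egr2.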

Additional observations from a re-analysis of the deposited data

Results flagged for a closer look

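Nr4a2 at 8 h lay on opposite sides of unstimulated cells with the 2 stimuli: all 3 IF libraries (13.4, 20.2 and 13.9 CPM) were above, and all 3 DC libraries (2.97, 4.60 and 1.03 CPM) below, the unstimulated libraries (12.2, 7.95 and 11.4 CPM). The difference of IF from DC was 2.44 ± 0.66 (log2, SE) and did not pass the edgeR test (adjusted p = 0.137), while DESeq2 called it (adjusted p = 0.00958). The difference of either group from unstimulated cells did not pass the edgeR test.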

How the results depend on the processing

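No member's called difference changed direction under any alternative. The numbers of the 6 members that passed were 3, 0, 3 and 3 in IF 8 h, DC 8 h, IF 22 h and DC 22 h, 0 and 4 between IF and DC at 8 h and 22 h, and 0 in both time comparisons and the interaction. In DC 8 h the number was 3 with no low-count filter, 1 with a mean of at least 10 CPM, 3 by DESeq2, 2 with only the groups compared, 1 with thinned counts and 1 without DC replicate 2 at both times. Between IF and DC at 8 h it was 4 with no filter, 3 by DESeq2 and 3 without DC replicate 2 at both times, and between DC 22 h and DC 8 h it was 2 with no filter and 1 by DESeq2. At 22 h a fit restricted to the IF and DC libraries called 1. A threshold of 0.01 left 1 in IF 8 h, 1 in IF 22 h and 2 between IF and DC at 22 h, and without IF 22 h replicates 2 and 3 it was 0 in the latter pair of comparisons; the cause was not tested beyond the fewer samples of that fit.

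With single libraries left out the number ran from 1 to 2 in IF 8 h, 0 to 1 in DC 8 h, 1 to 2 in IF 22 h, 2 to 3 in DC 22 h, 0 to 1 between IF and DC at 8 h, 2 to 5 between them at 22 h, and 0 to 1 between the DC times.

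Over the whole design the correlations did not clearly pair the libraries by replicate number, which does not exclude that a number marks the same animal. The correlation of deviations over 30 same-numbered pairs ran from -0.189 to 0.399, with 4 over 0.1, and 9 of 15 libraries correlated best with their own number. The pairs of DC 8 h and DC 22 h are the exception, and a replicate block with only the DC libraries called 1 member between the DC times, Ier2, and 166 genes in all. With the replicate number as a block over all 15 libraries, 2 members passed in DC 8 h (Egr1 and Ier2) and 1 between IF and DC at 8 h (Egr1), and the other counts did not move.

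Over all genes the number called moved more. It was 840 in IF 8 h (267 at a threshold of 0.01, 1299 with only that pair of groups), 739 in DC 8 h (307 and, by DESeq2, 1175), 658 in IF 22 h (99 without IF 22 h replicates 2 and 3, 1101 with no filter) and 840 in DC 22 h (335 at 0.01, 1586 with library size alone). Between IF and DC it was 72 at 8 h (25 at 0.01, 215 with no filter) and 263 at 22 h (8 without IF 22 h replicates 2 and 3, 759 at most with 1 library left out). For IF 22 h against 8 h it was 121 (0 to 541) and for DC 52 (0 to 251). The interaction gave 0 (155 with no filter, 40 by DESeq2, 279 at most with 1 library left out). Genes near the low-count limit, such as Nr4a3 and Egr3, could not be compared at this depth.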
